A study of Macaca fascicularis with 11 samples.

Results

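POU5F1, NANOG, UTF1, DPPA4, L1TD1, GDF3 and USP44 are 7 genes that mark pluripotent cells, and their levels are described here across the lineages, days and genotypes of in vitro cultured cynomolgus macaque embryos. The members are the rows that carry these 7 symbols, 7 of the 19367 genes in the corrected count matrix. All 7 were matched to an Ensembl identifier through the symbol and identifier pairs of the study's supplementary lists. They were chosen by name, but with earlier results of these data known. The study lists them as epiblast markers from these wild-type cells, so the choice was not independent of the data.

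The study asked what ISL1, a transcription factor of the amnion, does in the early primate embryo, and profiled single cells of Macaca fascicularis embryos with 10x Genomics 3' v3 chemistry. A library held the cells of 1 to 3 embryos. There were 6 wild-type libraries from 12 embryos, 2 on each of Day 10, Day 12 and Day 14. The ISL1 hypomorphic mutants gave 5 libraries from 11 embryos, with 1 library at Day 10 and 2 at each later day. The mutants came from zygotes injected with Cas9 and guide RNAs against ISL1, where the labels name SpCas9 mRNA and the study's methods Cas9 protein. They were mosaic, with different ISL1 alleles among the cells of an embryo, and the wild-type embryos carried no edit. Libraries pool embryos, so p-values measure the spread between libraries and not between single embryos.

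Pluripotent cells can give rise to every tissue of the body, and in the embryo they are the cells of the epiblast. A network of transcription factors with POU5F1 and NANOG at its centre holds this state, and it is taken apart as the epiblast forms mesoderm and amnion. Trophoblast and endoderm belong to lineages outside the epiblast proper. For extraembryonic mesenchyme the study proposes an origin in epiblast-derived extraembryonic mesoderm, with a possible further contribution from endoderm.

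The members have different roles. POU5F1 (ENSMFAG00000004232), also called OCT4, is a POU-domain transcription factor, and NANOG (ENSMFAG00000041377) is a homeobox transcription factor. UTF1 (ENSMFAG00000037727) and DPPA4 (ENSMFAG00000036320) are chromatin-associated proteins of pluripotent cells. L1TD1 (ENSMFAG00000031887) is an RNA-binding protein that derives from the LINE-1 retrotransposon, GDF3 (ENSMFAG00000038386) is a secreted ligand of the TGF-beta family, and USP44 (ENSMFAG00000002328) is a deubiquitinase that acts on histone H2B.

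The corrected matrix held 33330 cells in 11 libraries, with 325 to 9625 cells and a median of 10916 to 142180 UMIs (unique molecular identifiers, each standing for 1 captured transcript) per cell. Between 2 and 67 barcodes of a library also occurred in another library. Cells were clustered without the members and named from markers that hold none of them. This gave 21746 trophoblast-like cells, 6550 extraembryonic mesenchyme (ExE-Mech)-like cells, 488 endoderm-like cells and 3024 cells of the epiblast and its derivatives (Epi-derived). The Epi-derived cells split into 1117 epiblast (Epi)-like, 481 transition-like, 601 mesoderm-like and 221 amnion-like cells, and 604 stayed unnamed, since markers of another class stood among their leading genes or their markers were those of another lineage. Wild-type Day 14 replicate 2 had no Epi-like cells under this naming. Its 78 unnamed cells held 1608 CPM of POU5F1 (CPM divide a gene's UMIs by all UMIs of the sum, on one common scale) and 109 CPM of NANOG, with 55.8 CPM of USP44 and 28.4 CPM of GDF3, and they enter only the comparisons over all Epi-derived cells. ISL1 was counted from the 3' end of its transcript, so its level does not check the edit. In Epi-derived cells it was 1.57 to 45.5 CPM in wild-type and 4.79 to 68.3 CPM in mutant libraries.

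POU5F1 was at 581 CPM or more in each of the 4 named Epi-derived types, while some unnamed Epi-derived sub-clusters had less, down to 14.3 CPM. Without the check of leading genes, the amnion-like class of mutant Day 14 replicate 1 held 218 cells in place of 51. It then took in unnamed sub-clusters with 53.1 and 14.3 CPM of POU5F1. The 581 CPM and the amnion-like levels and shares below thus hold for the naming used here. That naming was settled after the POU5F1 and NANOG levels of clusters had been seen, so the 581 CPM is not independent of it. Levels are CPM of the UMIs summed over the cells of a class in a library, for libraries with at least 5 such cells. In Epi-like cells POU5F1 was 1318 to 1778 CPM over 10 libraries, with a median of 1537 CPM, and in transition-like cells it was 1444 to 1978 CPM. Mesoderm-like cells had 719 to 1442 CPM in 9 libraries and amnion-like cells 581 to 1216 CPM in 6 libraries. The lowest mesoderm-like sums were those of Day 10, at 719 and 911 CPM in wild type and 754 CPM in the mutant. The study proposes that mesoderm-like cells of that day are extraembryonic mesoderm. The ranges of Epi-like and mesoderm-like cells overlapped, while those of Epi-like and amnion-like cells did not. Outside the Epi-derived cells it reached 74.1 CPM in endoderm-like cells, 60.7 CPM in ExE-Mech-like cells of the mutant Day 10 library and 17.5 CPM in trophoblast-like cells. In the order of the mean log2 levels, transition-like stood above Epi-like, mesoderm-like, amnion-like, endoderm-like, ExE-Mech-like and trophoblast-like cells. In this order the neighbours transition-like and Epi-like, mesoderm-like and amnion-like, endoderm-like and ExE-Mech-like, and ExE-Mech-like and trophoblast-like differed by less than 1 SD between libraries.

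NANOG, in contrast, was much lower in mesoderm-like and amnion-like cells than in Epi-like cells. It was 193 to 535 CPM in Epi-like cells with a median of 282 CPM, and 150 to 447 CPM in transition-like cells. Mesoderm-like cells had 1.33 to 90.3 CPM and amnion-like cells 2.65 to 63.0 CPM, so that neither range reached that of the Epi-like cells. The lowest mesoderm-like value came from wild-type Day 14 replicate 2, where 31 cells held 1 NANOG UMI (95% counting interval 0.0336 to 7.40 CPM). The lowest amnion-like value also stood for 1 UMI, in 51 cells of mutant Day 14 replicate 1 (0.0671 to 14.8 CPM). In trophoblast-like cells NANOG was 0.489 to 3.46 CPM, and it was not detected in some endoderm-like sums. Set against POU5F1 in the same cells, NANOG gave 11.8 to 33.3 UMIs per 100 POU5F1 UMIs in Epi-like cells, 0.0974 to 7.99 in mesoderm-like cells and 0.457 to 9.30 in amnion-like cells.

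**Figure D1:**
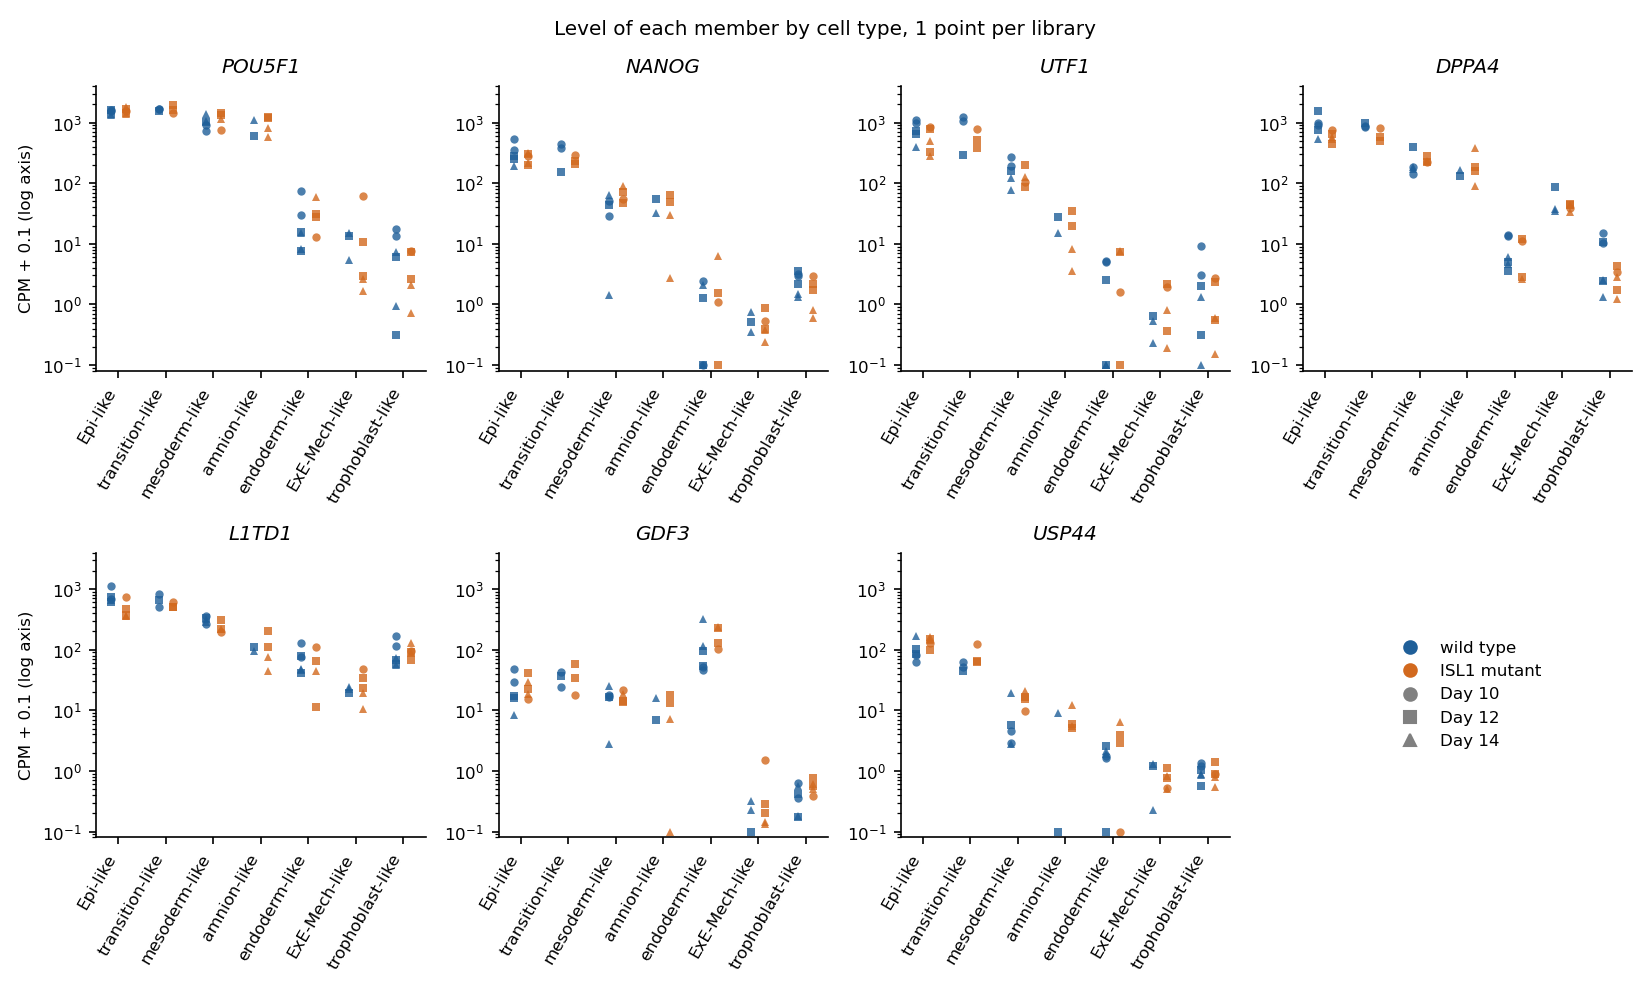
Level of each member by cell type. The vertical axis is CPM with 0.1 added, on a log scale, the horizontal axis is the type, each point is 1 library with at least 5 cells of the type, colour gives the genotype and shape the day. POU5F1 is at 581 CPM or more in the 4 named Epi-derived types under the naming used here. NANOG, UTF1 and USP44 are lower in mesoderm-like and amnion-like cells, and among the types shown GDF3 is highest in endoderm-like cells.

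The chromatin-associated members separated the classes to different degrees. UTF1 was 278 to 1097 CPM in Epi-like cells, 78.3 to 267 CPM in mesoderm-like cells and 3.48 to 34.4 CPM in amnion-like cells, and these 3 ranges did not overlap. DPPA4 was 447 to 1534 CPM in Epi-like cells, 139 to 390 CPM in mesoderm-like cells and 90.1 to 378 CPM in amnion-like cells, so the last 2 ranges overlapped. DPPA4 was also found in ExE-Mech-like cells of all 8 libraries, at 33.8 to 87.0 CPM, where POU5F1 was at or below 60.7 CPM and NANOG at or below 0.777 CPM. Its range there lay above those of endoderm-like cells, 2.49 to 14.0 CPM, and trophoblast-like cells, 1.12 to 14.98 CPM.

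Transition-like cells, with sums from Day 10 and Day 12 libraries only, had medians of UTF1, DPPA4 and L1TD1 within the Epi-like ranges. UTF1 was 296 to 1225 CPM there, with a median of 643 CPM against 683 CPM in Epi-like cells. DPPA4 was 502 to 964 CPM and L1TD1 507 to 837 CPM, both within the Epi-like ranges. Outside the Epi-derived cells UTF1 was at or below 9.15 CPM in every library, and the order of its levels below the amnion-like cells was within 1 SD from neighbour to neighbour.

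USP44 was the member with the lowest level relative to Epi-like cells once a cell was mesoderm-like. It was 62.8 to 168 CPM in Epi-like cells, 44.9 to 123 CPM in transition-like cells, 2.65 to 20.8 CPM in mesoderm-like cells and 0 to 12.2 CPM in amnion-like cells. Wild-type Day 12 replicate 2 had no USP44 UMI in its 5 amnion-like cells. The mean of the transition-like cells was lower than that of the Epi-like cells by more than 1 SD, which was not so for NANOG, UTF1, DPPA4 or L1TD1. Transition-like sums came from Day 10 and Day 12 only, while the Epi-like means also held Day 14 libraries. The part of the days in these differences was not tested.

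L1TD1 did not stay within the Epi-derived cells. It was 359 to 1139 CPM in Epi-like cells, 198 to 359 CPM in mesoderm-like cells and 45.1 to 201 CPM in amnion-like cells. Trophoblast-like cells of the 11 libraries had 56.7 to 170 CPM, which lay within the amnion-like range. Endoderm-like cells had 11.1 to 128 CPM and ExE-Mech-like cells 10.6 to 47.7 CPM. With each cell thinned to 5000 UMIs, 21.6% to 55.0% of the trophoblast-like cells had an L1TD1 UMI (53.9% to 97.1% without thinning), while 0.115% to 5.57% had a POU5F1 UMI. In the same thinned cells, ExE-Mech-like cells had an L1TD1 UMI in 3.49% to 23.4%. The removal of ambient RNA by the authors took at most 6.59% of the L1TD1 UMIs of trophoblast-like cells.

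Among the named types, GDF3 had its highest level outside the epiblast. Endoderm-like cells had 45.7 to 325 CPM over 10 libraries, with a median of 109 CPM, against 8.37 to 47.7 CPM in Epi-like cells. Only the lowest endoderm-like library, wild-type Day 10 replicate 1, fell within the Epi-like range. An unnamed Epi-derived sub-cluster of Day 10 held more than this library's endoderm-like cells, at 96.1 and 139 CPM in wild-type replicates 1 and 2. Wild-type Day 14 replicate 1 held the highest endoderm-like value, from 715 UMIs in 47 cells. Transition-like cells had 17.6 to 57.4 CPM, mesoderm-like cells 2.65 to 25.4 CPM and amnion-like cells 0 to 17.6 CPM. Trophoblast-like and ExE-Mech-like cells were at or below 1.42 CPM in every library. With cells thinned to 5000 UMIs, 9.52% to 56.0% of endoderm-like cells had a GDF3 UMI, 0% to 17.9% of Epi-like cells and 0% to 0.354% of trophoblast-like cells. The summed level of the 10 endoderm markers was 45.8 to 123 CPM in Epi-like cells and 51982 to 87881 CPM in endoderm-like cells.

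**Figure D2:**
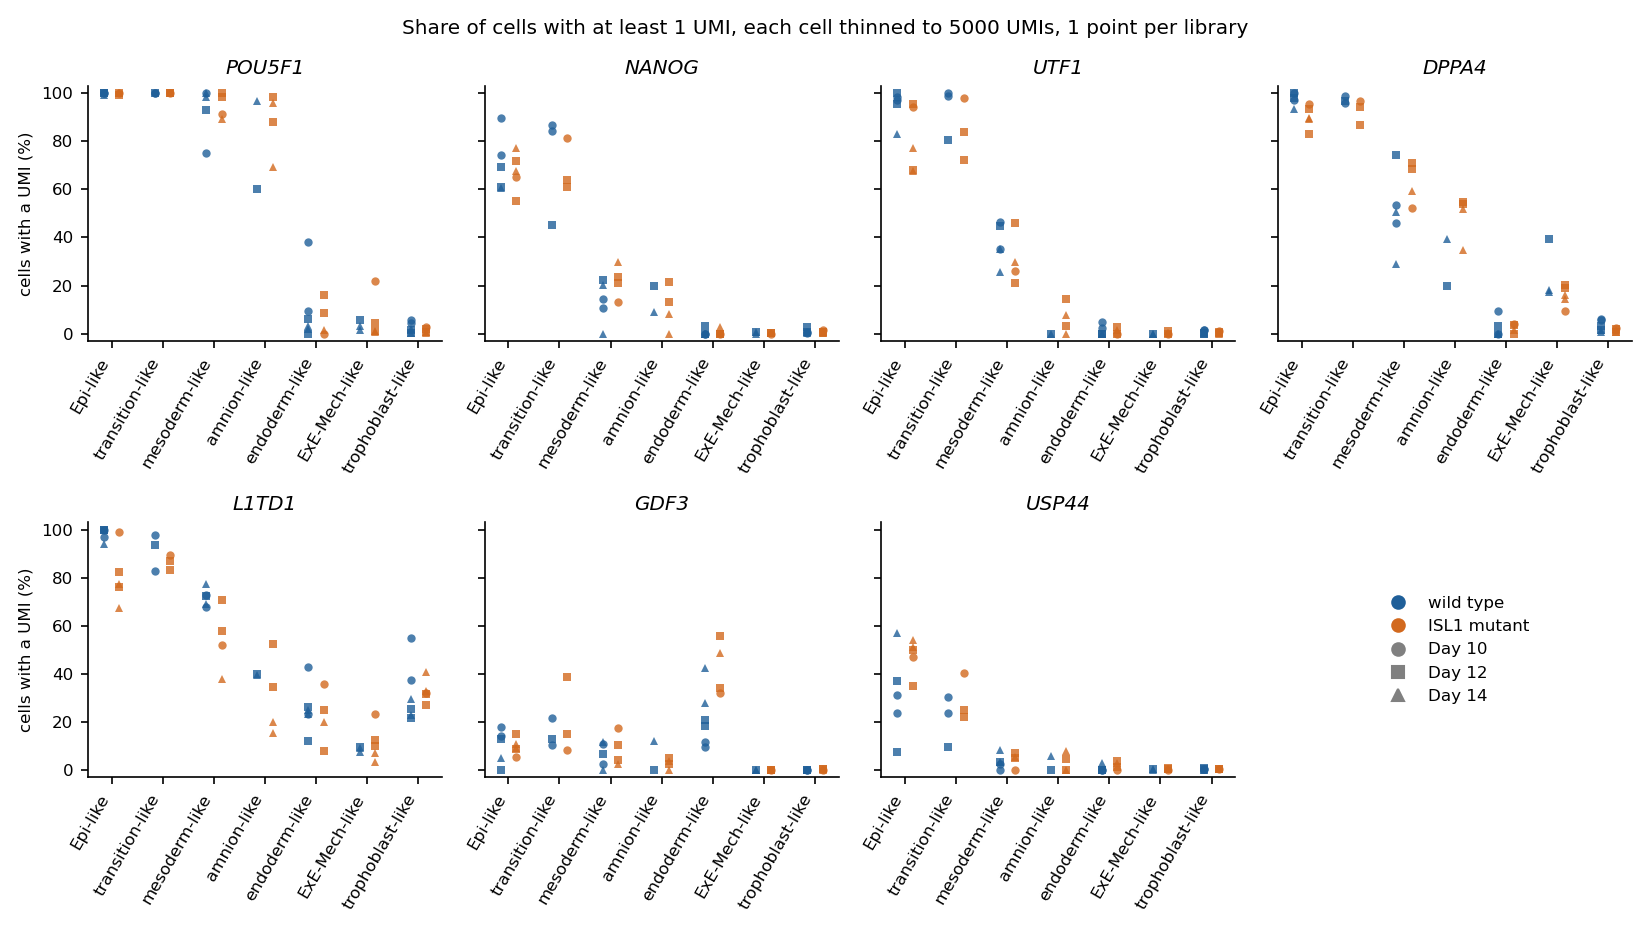
Share of cells with at least 1 UMI of a member after each cell was thinned to 5000 UMIs. The vertical axis is the percent of cells, the horizontal axis the type, each point 1 library with colour for the genotype and shape for the day. POU5F1 is found in 60% to 98.4% of amnion-like cells where UTF1 is found in 0% to 14.3%, and L1TD1 reaches 55.0% of trophoblast-like cells. The amnion-like shares hold for the naming used here, which was settled after POU5F1 and NANOG levels of clusters had been seen.

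The thinned shares gave each class a profile in single cells. POU5F1 was detected in 99.4% to 100% of Epi-like cells, 75.0% to 100% of mesoderm-like cells and 60% to 98.4% of amnion-like cells. The lower end of the amnion-like range came from 5 cells of wild-type Day 12 replicate 2. NANOG was detected in 55.2% to 89.6% of Epi-like cells, 0% to 29.7% of mesoderm-like cells and 0% to 21.4% of amnion-like cells. UTF1 was found in 67.6% to 100%, 21.1% to 46.4% and 0% to 14.3% of these classes, and USP44 in 7.69% to 56.9%, 0% to 8.36% and 0% to 8.00%. Trophoblast-like cells, which should lack NANOG, had a NANOG UMI in 0.278% to 2.88%. At this depth an Epi-like cell held UMIs of 4.32 to 5.30 of the 7 members on average over its library, a mesoderm-like cell 2.35 to 3.21, an amnion-like cell 1.27 to 2.38 and a trophoblast-like cell 0.273 to 0.697. Between 0 and 25 amnion-like and between 0 and 150 trophoblast-like cells of a library held fewer than 5000 UMIs and were left out of these shares. The median depth of the amnion-like cells was 5184 to 29603 UMIs, that of the Epi-like cells 7220 to 139559 UMIs and that of the trophoblast-like cells 11673 to 146724 UMIs.

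Ratios within a library compare types that share embryos, chemistry and depth of sequencing. The members are known epiblast genes, so these ratios are given as a description, with no test. At Day 14, in the 3 libraries with enough cells of both types, the log2 ratio of Epi-like over amnion-like cells was 0.88 ± 0.52 (SD, n = 3) for POU5F1. It was 3.91 ± 2.09 for NANOG, 5.48 ± 0.70 for UTF1 and 4.09 ± 0.56 for USP44. DPPA4 gave 1.62 ± 1.07 and L1TD1 2.67 ± 0.36. By these means UTF1 had the largest ratio and POU5F1 the smallest among the 6 members with UMIs in every sum. The amnion-like UTF1 sums held 17 UMIs in wild-type replicate 1, and 3 and 2 in mutant replicates 1 and 2. The order was not the same in each library. In mutant replicate 1 NANOG (6.32) stood above UTF1 (5.76), but from 1 and 3 amnion-like UMIs, too few to order them. In mutant replicate 2 DPPA4 (0.52) stood below POU5F1 (1.10). Without mutant replicate 1, where amnion-like NANOG was 1 UMI, the NANOG mean was 2.70. GDF3 had no UMI in the 51 amnion-like cells of mutant Day 14 replicate 1, against 18.7 CPM in its Epi-like cells, which is at least 2.36-fold higher if 3 UMIs are taken as the floor. In wild-type Day 14 replicate 1 the GDF3 ratio was below 0, at -0.96. The median over the 7 members was 2.67, also with GDF3 at its bound, and the median of 6170 genes over 10 CPM was -0.020.

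For Epi-like over mesoderm-like cells at Day 14, 2 libraries held both types. POU5F1 gave 0.30 ± 0.026 (SD, n = 2), NANOG 1.69 ± 0.16, UTF1 1.85 ± 0.17, DPPA4 1.42 ± 0.15, L1TD1 0.87 ± 0.23 and USP44 3.01 ± 0.19 on the log2 scale. GDF3 was the exception, at -0.81 ± 1.10, with the 2 libraries at -1.59 and -0.034. In wild-type replicate 1, 315 of the mesoderm-like GDF3 UMIs came from the sub-cluster led by MIXL1, at 46.6 CPM, while the other two sub-clusters held 6.44 and 3.59 CPM against 8.37 CPM in Epi-like cells. The median of 6186 genes was -0.16. One of these libraries was wild-type and the other mutant, and the ratios of the 6 other members lay on the same side of 0 in both. Against trophoblast-like cells in 5 wild-type libraries, all 7 members were higher in Epi-like cells of every library. L1TD1 had the smallest ratio, 3.13 ± 0.46, and UTF1 the largest mean, 8.73 ± 1.75, with 0.13 as the median of 6274 genes. In wild-type Day 12 replicate 1, where UTF1 had 9 UMIs in trophoblast-like cells, its ratio was 11.66 and that of POU5F1 12.58. Without this library the UTF1 mean was 8.00.

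**Figure D3:**
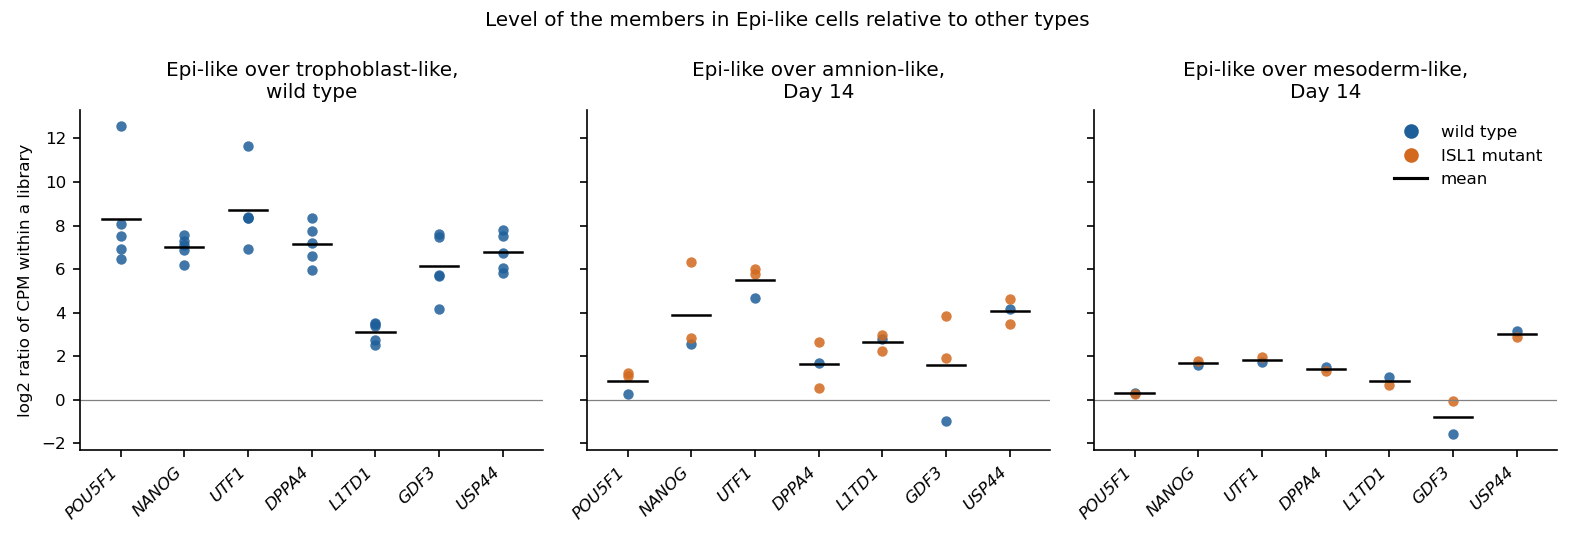
Level of each member in Epi-like cells relative to trophoblast-like, amnion-like and mesoderm-like cells. The vertical axis is the log2 ratio of CPM within a library with 0.5 UMI added to each sum, each point is 1 library coloured by genotype, and the black line is the mean. POU5F1 sits near 0 in the mesoderm-like panel, at 0.30, while USP44 sits at 3.01.

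The next comparison asked whether the members changed in wild-type Epi-like cells between the first and the last day of culture. No member passed the test, while 47 of 10598 genes were called, 0.443% (edgeR quasi-likelihood test, false discovery rate 1%). Before adjustment, 4 of the 7 members and 16.4% of all genes tested had p under 0.05. DESeq2 called no member either. With the replicate number as a block 27 genes were called, and no member. The Day 14 value came from 1 library, wild-type Day 14 replicate 1, and took its spread from the other groups.

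POU5F1 was 1554 and 1608 CPM at Day 10, 1391 and 1616 CPM at Day 12, and 1318 CPM at Day 14. The fitted log2 difference of Day 14 minus Day 10 was -0.10 (SE 0.30, 95% interval -0.76 to 0.56). The interval includes 0 and reaches no 2-fold difference in either direction.

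USP44 was 82.2 and 62.8 CPM at Day 10, 85.5 and 101 CPM at Day 12, and 168 CPM at Day 14. The Day 14 library stood above all 4 earlier ones, while the unnamed cells of wild-type Day 14 replicate 2, at 55.8 CPM, lay below them. Day 10 and Day 14 libraries did not overlap for 78.3% of all genes tested. The log2 difference was 1.38 (SE 0.33, 95% interval 0.66 to 2.09), with an adjusted p of 0.0583 in edgeR's quasi-likelihood test with Benjamini-Hochberg adjustment. Among the alternatives run, it passed only with no filter on low counts, at 1.41, a setting under which 518 of 17231 genes were called against 47 of 10598. The study ordered early and late epiblast cells in pseudotime, a path of changing expression. It names USP44 among genes of a primed pluripotent state that rose strongly along that path. Its measure was over cells, with in vivo embryos included, while libraries of Day 10 and Day 14 are compared here.

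GDF3 was 28.7 and 47.7 CPM at Day 10, 15.9 and 17.0 CPM at Day 12, and 8.37 CPM at Day 14. The unnamed cells of wild-type Day 14 replicate 2 had 28.4 CPM, above the Day 12 values. The log2 difference was -2.03 (SE 0.48, 95% interval -3.08 to -0.99), with an adjusted p of 0.0563 in the edgeR test. It too passed only with no filter on low counts, at -2.01, among the 518 genes called under that setting. The Day 14 sum held 81 GDF3 UMIs in 181 cells.

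NANOG and UTF1 also had lower values at Day 14 without passing. NANOG was 356 and 535 CPM at Day 10, 254 and 283 CPM at Day 12, and 193 CPM at Day 14, a log2 difference of -1.04 (SE 0.38, edgeR adjusted p = 0.207). UTF1 was 1097 and 999 CPM at Day 10, 733 and 634 CPM at Day 12, and 399 CPM at Day 14, a log2 difference of -1.24 (SE 0.50, edgeR adjusted p = 0.256). For both, the 95% interval lay below 0, from -1.87 to -0.20 for NANOG and from -2.34 to -0.13 for UTF1. DPPA4 and L1TD1 had log2 differences of -0.70 (95% interval -1.56 to 0.15) and -0.30 (-1.04 to 0.44). Without wild-type Day 10 replicate 2 the number of genes called was 12, and L1TD1 gave 0.076.

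**Figure D4:**
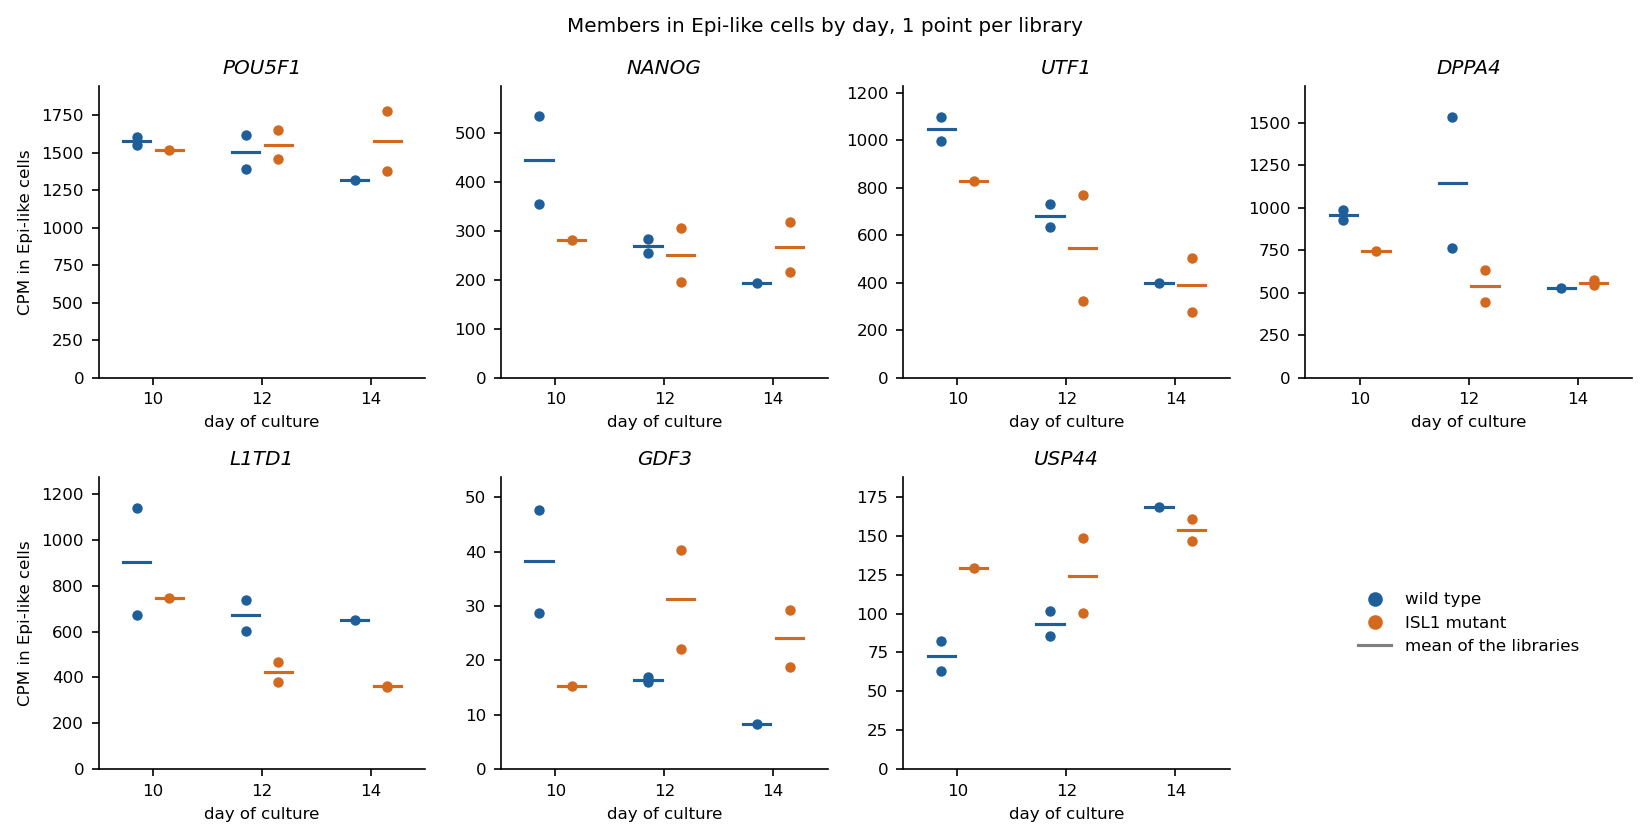
Members in Epi-like cells by day of culture. The vertical axis is CPM from 0, the horizontal axis the day, each point is 1 library coloured by genotype, and the lines are means of the libraries of a group. POU5F1 stays between 1318 and 1778 CPM, while wild-type USP44 reaches 168 CPM and wild-type GDF3 8.37 CPM at Day 14.

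Of the 29 other pluripotency genes listed, 13 had an identifier among the study's symbol pairs, and all 13 were tested in wild-type Epi-like cells. None passed in either direction in edgeR's test, and 5 had an unadjusted p under 0.05, against the 16.4% of all genes tested.

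The mutant was then compared with wild type over all Epi-derived cells of each day. No member passed at any day (edgeR, false discovery rate 1%). Called genes were 0 of 12437 at Day 10, 0%, 0 of 12437 at Day 12, 0%, and 12 of 12437 at Day 14, 0.0965%, or 3 at Day 14 with the replicate number as a block. Of the members, 1 at Day 10, 2 at Day 12 and 1 at Day 14 had an unadjusted p under 0.05, as did 580, 1306 and 3058 of the 12437 genes tested. DESeq2 called no member, and 16, 43 and 571 genes. Of the 13 other pluripotency genes none was called on any day, with 1, 1 and 8 at an unadjusted p under 0.05 where 24.6% of all genes tested had one on the last of these days.

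POU5F1 in Epi-derived cells was 1459 and 1527 CPM in wild type and 1411 CPM in the mutant at Day 10, 1378 and 1352 against 1412 and 1491 CPM at Day 12, and 1153 and 1529 against 804 and 1267 CPM at Day 14. The groups overlapped at Day 14. The log2 differences of mutant minus wild type were -0.11 (95% interval -0.87 to 0.66), 0.045 (-0.58 to 0.67) and -0.33 (-0.96 to 0.29). The lowest Day 14 value came from mutant replicate 1. Its cells include 144 of an unnamed sub-cluster with 53.1 CPM of POU5F1, and the part of this sub-cluster in the difference was not tested. Without this whole library the Day 14 difference was 0.0027, the upper end of the values with 1 library left out.

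NANOG and UTF1 had differences no larger than 0.53 on the log2 scale in either direction on any day when all libraries were used. NANOG gave -0.34 at the first, -0.15 at the middle and 0.52 at the last day, with 95% intervals of -1.30 to 0.62, -0.93 to 0.63 and -0.26 to 1.31. UTF1 gave -0.36, -0.53 and -0.33, with intervals of -1.56 to 0.84, -1.50 to 0.45 and -1.31 to 0.64. All 6 intervals include 0. The Day 12 differences turned with the libraries used. NANOG was 0.30 without wild-type replicate 1 and 0.18 without mutant replicate 2, but -0.51 without wild-type replicate 2 and -0.63 without mutant replicate 1. UTF1 was 0.097 and 0.013 without the first pair, and -0.97 and -1.42 without the second.

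DPPA4 had its largest estimate at Day 12. It was 760 and 957 CPM in the wild-type and 517 and 349 CPM in the mutant libraries, which did not overlap, as was so for 39.3% of all genes tested. The log2 difference was -1.01 (SE 0.26, 95% interval -1.60 to -0.43), with an edgeR adjusted p of 0.271. The mix of types differed between these sums. Wild-type replicate 1 had 14 Epi-derived cells, 13 of them Epi-like, and wild-type replicate 2 had 46 Epi-like and 58 mesoderm-like cells. The mutant libraries had 372 and 166 Epi-like, 72 and 20 mesoderm-like, and 43 and 62 amnion-like cells. Within transition-like cells DPPA4 was 964 CPM in wild-type replicate 2 against 502 and 574 CPM in the mutant libraries. Within mesoderm-like cells it was 390 CPM against 279 and 223 CPM. Epi-like cells had 760 and 1534 CPM in wild type, above both mutant libraries. Amnion-like cells, only 5 of them in wild type, went the other way, with higher values in the mutant libraries. The part of this mix in the DPPA4 difference was not tested. At Day 10 it was -0.044 (-0.75 to 0.66) and at Day 14 0.14 (-0.43 to 0.72). The test of the difference between the Day 14 and the Day 12 effects gave 1.16 (SE 0.37) with an edgeR adjusted p of 0.461.

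L1TD1 values of the mutant libraries lay below those of wild type at Day 12 and Day 14, and the difference passed the test on no day. At Day 10 the log2 difference was -0.10 (95% interval -0.87 to 0.67). At Day 12 the level was 597 and 570 CPM in wild type and 428 and 300 CPM in the mutant, a log2 difference of -0.72 (SE 0.28, edgeR adjusted p = 0.412). At Day 14 it was 436 and 432 CPM against 264 and 232 CPM, a log2 difference of -0.79 (SE 0.28, 95% interval -1.42 to -0.16, edgeR adjusted p = 0.127). Groups did not overlap for 39.3% of all genes tested at Day 12 and 57.5% at Day 14. Mesoderm-like cells numbered 288 and 31 in the wild-type and 43 and 1 in the mutant libraries at Day 14. An unnamed sub-cluster with 144 and 25 cells in the mutant libraries, and fewer than 5 in either wild-type library, had L1TD1 at 13.3 and 14.6 CPM. At Day 12 L1TD1 was also lower in both mutant libraries within Epi-like, transition-like and mesoderm-like cells. It was not lower within amnion-like cells, only 5 of them in wild type. The part of the mix of types at Day 12 and Day 14 in the L1TD1 difference was not tested.

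GDF3 had the widest interval of the members on each day. It was 18.7 and 21.1 CPM in wild-type and 11.1 and 80.0 CPM in mutant libraries at Day 14, with a log2 difference of 1.25 (95% interval -0.27 to 2.77). Of the 219 GDF3 UMIs in mutant replicate 2, 168 came from 12 cells of an unnamed sub-cluster with endoderm markers, which held 837 CPM. Without the sub-clusters that carried trophoblast or endoderm markers, the difference was -0.25. GDF3 gave -1.15 (-3.01 to 0.70) at Day 10 and 0.53 (-0.996 to 2.07) at Day 12. USP44 was 49.9 and 39.6 CPM in wild type and 111 CPM in the mutant at Day 10, where 70.8% of all genes tested had groups that did not overlap, with a log2 difference of 1.28 (SE 0.46, edgeR adjusted p = 0.910), while Day 12 gave 0.21 (-0.67 to 1.09) and Day 14 0.48 (-0.40 to 1.36).

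Levels of trophoblast markers moved with the genotype in these sums. The summed level of 12 trophoblast markers in Epi-derived cells was 87.4 and 160 CPM in wild-type and 827 and 874 CPM in mutant libraries at Day 12, and 187 and 400 CPM against 511 and 1395 CPM at Day 14. In trophoblast-like cells it was 6287 to 24744 CPM. The median depth per cell was 10916 to 23378 UMIs in the Day 12 and Day 14 mutant libraries and 24720 to 142180 UMIs in the wild-type libraries of those days. The part of both in the differences was not tested.

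None of the 21 tests of a member for a difference of the mutant effect between days passed (edgeR, false discovery rate 1%). Of all 12437 genes tested, 0 were called for any pair of days. Before adjustment, 8.8% of genes had p under 0.05 for Day 14 minus Day 12. For Day 14 minus Day 10 it was 11.7%, and for Day 12 minus Day 10 5.72%. DPPA4 was among them for the first and the last pair. GDF3 had the largest estimate, 2.40 (SE 1.09, edgeR adjusted p = 0.428) for Day 14 minus Day 10.

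Within Epi-like cells at Day 14 no member passed, and neither did any of the 10598 genes, 0% (edgeR, false discovery rate 1%). Before adjustment 2 members and 16.6% of all genes tested had p under 0.05. DESeq2 called 138 genes and no member. The comparison set 2 mutant libraries against 1 wild-type library, and the genotypes lay in different sub-clusters. Of the wild-type cells, 178 of 181 were in a sub-cluster led by SFRP1, SFRP2 and PSIP1. Of the mutant cells, 108 of 111 and 37 of 37 were in one led by MT1X, IGFBP2, DDIT4 and DDIT3, which include genes of the stress response. Genotype and sub-cluster cannot be told apart here.

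POU5F1 was 1318 CPM in wild type and 1376 and 1778 CPM in the mutant libraries, a log2 difference of 0.32 (95% interval -0.35 to 0.98). NANOG was 193 against 318 and 216 CPM (0.50, -0.31 to 1.32) and UTF1 399 against 503 and 278 CPM (0.0052, -1.04 to 1.05). DPPA4 was 525 against 576 and 542 CPM (0.14, -0.70 to 0.98) and USP44 168 against 161 and 147 CPM (-0.084, -0.82 to 0.66). The intervals of these 5 members all include 0, and those of NANOG and UTF1 also reach past a 2-fold difference.

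L1TD1 was 651 CPM in wild type and 359 and 363 CPM in the mutant libraries, which did not overlap, as was so for 72.1% of all genes tested. The log2 difference was -0.80 (SE 0.33, 95% interval -1.52 to -0.083, edgeR adjusted p = 0.254). GDF3 was 8.37 CPM in wild type and 18.7 and 29.3 CPM in the mutant libraries, from 81, 19 and 46 UMIs. Its log2 difference was 1.60 (SE 0.49, 95% interval 0.53 to 2.67, edgeR adjusted p = 0.141), and it passed when only the groups compared were fitted, at 1.61 with an edgeR adjusted p of 0.00875. That fit of 2 libraries against 1 called 439 of 8330 genes. Over the other alternatives of this comparison GDF3 did not pass. The summed trophoblast markers in these Epi-like cells were 135 CPM in wild type and 277 and 129 CPM in the mutant libraries, with 0 of 12 markers at 0.

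**Figure D5:**
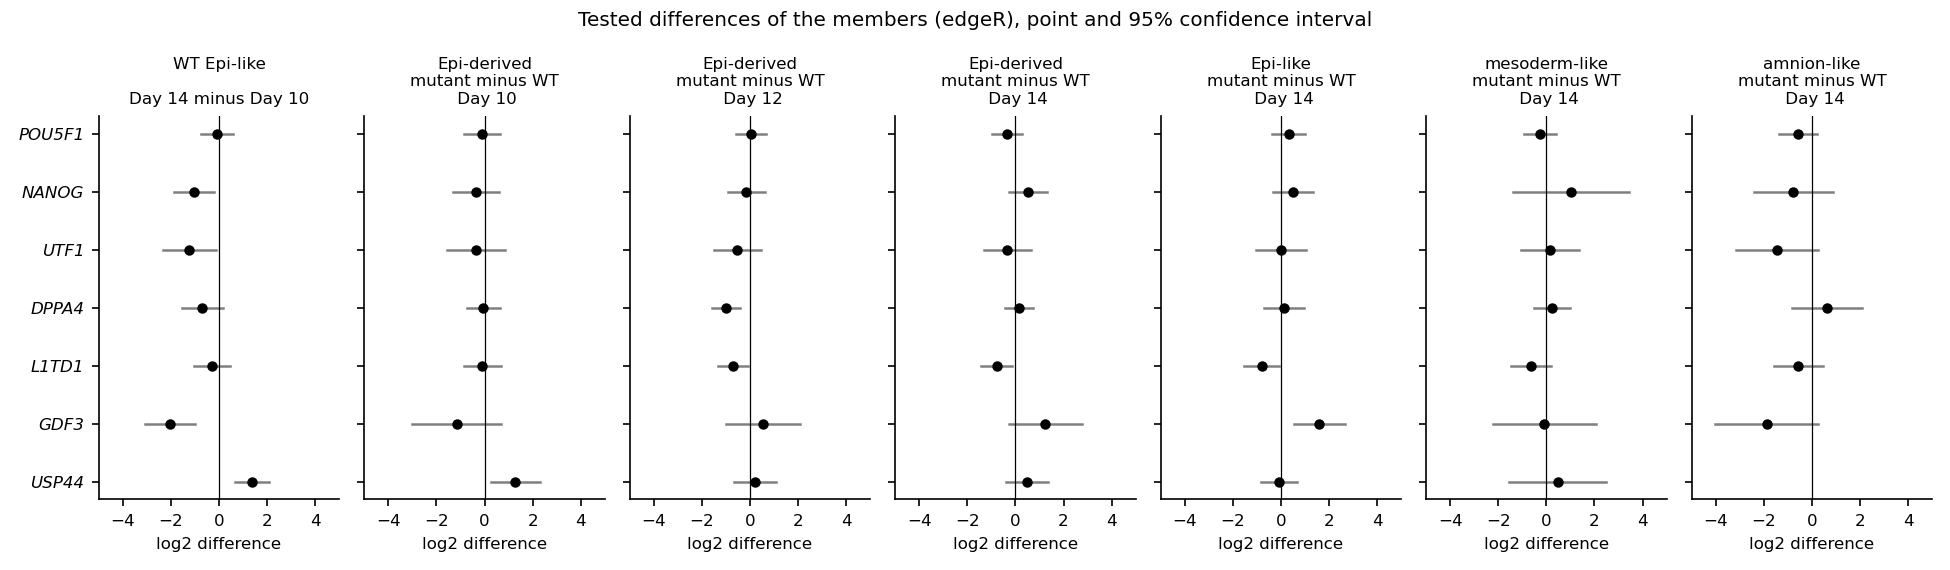
Tested differences of the members in the 7 comparisons. The horizontal axis is the fitted log2 difference, points are edgeR estimates and lines their 95% confidence intervals, and USP44 is missing in amnion-like cells, where it did not pass the filter on low counts. No member passed the threshold in any panel, and GDF3 and NANOG have the widest intervals in mesoderm-like cells.

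In mesoderm-like cells at Day 14, 2 genes of 10588 were called, 0.0189%, and no member, with no member at an unadjusted p under 0.05 (edgeR). Of all genes tested 6.63% had such a p, and 4 genes were called with the replicate number as a block. The mutant value came from 1 library with 43 such cells. The class held 3 sub-clusters in unequal shares, led by MIXL1, by FABP7, CDX1 and CDX2, and by MESP1. Wild-type replicate 1 had 133, 71 and 84 cells in them, the mutant 5, 27 and 11, and wild-type replicate 2 had 30 of its 31 cells in the one led by FABP7. POU5F1 was 1056 and 1363 CPM in wild type and 1130 CPM in the mutant (log2 difference -0.26, 95% interval -0.94 to 0.41). NANOG was 64.8 and 1.33 CPM against 90.3 CPM (1.03, -1.37 to 3.43), with the wild-type libraries farther apart from each other than the higher one was from the mutant. In wild-type replicate 1 NANOG was 110, 41.2 and 4.87 CPM in the 3 sub-clusters in that order. The mutant value lay above both wild-type values, and 72.4% of all genes tested had groups that did not overlap. UTF1 was 121 and 78.3 CPM against 127 CPM (0.15, -1.05 to 1.36), DPPA4 182 and 169 CPM against 232 CPM (0.23, -0.52 to 0.97), and L1TD1 319 and 288 CPM against 220 CPM (-0.64, -1.47 to 0.20). GDF3 was 25.4 and 2.65 CPM against 18.5 CPM (-0.087, -2.22 to 2.05) and USP44 19.1 and 2.65 CPM against 20.8 CPM (0.46, -1.57 to 2.49). All of these intervals include 0.

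In amnion-like cells at Day 14, 5 genes of 7450 were called, 0.0671%, and again no member, none with an unadjusted p under 0.05 against 15.1% of all genes tested (edgeR). With the replicate number as a block 8 genes were called, and no member. DESeq2 called 11 genes and no member here and 8 genes and no member in mesoderm-like cells. The wild-type value came from 33 cells of 1 library. POU5F1 was 1085 CPM in wild type and 581 and 826 CPM in the mutant libraries (log2 difference -0.58, 95% interval -1.39 to 0.22). These groups did not overlap, as was so for 71.4% of all genes tested. With leading genes not checked, mutant replicate 1 held 218 amnion-like cells, which took in unnamed sub-clusters with 53.1 and 14.3 CPM of POU5F1. Its POU5F1 level was then lower than 581 CPM, so this level depends on the naming. UTF1 was 15.1 CPM against 7.95 and 3.48 CPM (-1.45, -3.15 to 0.25), from 17, 3 and 2 UMIs, with 95% counting intervals of 1.64 to 23.2 and 0.421 to 12.6 CPM for the mutant libraries. DPPA4 was 162 CPM against 90.1 and 378 CPM (0.63, -0.82 to 2.09), so the mutant libraries lay on both sides of the wild-type one. GDF3 had the largest estimate, from 16.0 CPM in wild type against 0 and 6.96 CPM (-1.87, -4.02 to 0.27), which rest on 18, 0 and 4 UMIs. NANOG was 32.0 CPM against 2.65 and 29.6 CPM (-0.77, -2.40 to 0.87) and L1TD1 93.2 CPM against 45.1 and 74.8 CPM (-0.57, -1.60 to 0.47). USP44, at 8.88 CPM against 5.30 and 12.2 CPM, did not pass the filter on low counts and was not tested. In amnion-like cells ISL1 was 115 CPM in wild-type and 260 and 211 CPM in mutant libraries at Day 14, and the trophoblast markers summed to 237 CPM against 668 and 513 CPM.

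Across all sums of a library and type, the members other than GDF3 followed each other. Over 60 sums, which share libraries and depth, Pearson's r of log2(CPM + 1) was highest for NANOG with UTF1, at 0.94, and lowest for DPPA4 with GDF3, at 0.25. The sums span types and the members are known epiblast genes, so these r are a description. Within the 31 sums of Epi-derived types, UTF1 with L1TD1 had the highest r, 0.94, and GDF3 with USP44 the lowest, 0.49. There GDF3 did not stand apart from every member, with 0.77 for NANOG with GDF3 and 0.66 for POU5F1 with NANOG. Symbols came only from the study's supplementary lists, with 1019 identifiers paired, where the matrix held 19367 genes. Genes outside these lists were not searched for like patterns. Of 989 genes with a symbol and at least 10 CPM in 1 sum, the pattern of POU5F1 was most like those of KIF5C (r = 0.96), CXCL12 and OLFM2. That of NANOG was most like DND1 (0.92), SSB and SFRP2, that of UTF1 like FGF2 (0.95), KHDC3L and HELLS, and that of DPPA4 like NNAT (0.93), NES and SFRP2. L1TD1 was nearest to HELLS (0.90), SEPHS1 and FAM210A, and USP44 to PSIP1 (0.92), SSB and SFRP2. For GDF3, ZIC2 (0.91) and SCNN1A were among the nearest. OLFM2, SSB, SFRP2, KHDC3L, HELLS, FAM210A and PSIP1 were themselves among the markers used to name cells.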

How the data were processed

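Droplet libraries of dissociated embryos were aligned and counted by the authors with Cell Ranger 3.1.0 against the Ensembl annotation of Macaca_fascicularis_5.0. The deposited expected counts are UMIs of each gene in each cell after the authors' removal of ambient RNA with SoupX, and the deposited uncorrected counts were used as an alternative. The authors estimated the ambient share from choriogonadotropin in POU5F1-positive cells, so POU5F1 took part in the correction, which removed at most 0.731% of its UMIs in any named Epi-derived type and up to 30.8% in trophoblast-like cells. The authors also filtered cells on mitochondrial and gene numbers, and no doublet caller was run here. All corrected values were whole numbers.

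Cells of each library were clustered (2000 variable genes, 30 principal components, 20 neighbours, Leiden resolution 1, leidenalg 0.10.2). Epi-derived cells of a day were clustered again together after correction between libraries by 20 mutual nearest neighbours. The members, ISL1 and the 13 other pluripotency genes with an identifier were left out of features and markers. The rest of the 29 other pluripotency genes were in no marker list. They could not be matched to a row, so they were not kept out of the features. Clusters were named from marker lists, and a sub-cluster stayed unnamed where another class led its top 10 genes. The naming rule and the graph were settled after clusters and their POU5F1 and NANOG levels had been seen and before any test, and 4 versions of the sub-clustering were tried. The members and all lists were chosen with earlier results of these data known, and marker lists draw on the study's own genes.

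Counts were summed per library and type (at least 5 cells) and tested with edgeR 4.0.16 (R 4.3.3, TMM, filterByExpr, quasi-likelihood F test, groups of genotype and day, Benjamini-Hochberg, false discovery rate 1%, two-sided). DESeq2 1.42.0 was an alternative. The test was checked on simulated counts with 200 changed genes. Levels between types are ratios of CPM with 0.5 UMI added, with no test. All 7 members are given in every comparison, with the 3 genes of most like pattern for each, of which 1 is not reported here. Intervals and floors cover counting error or the spread between libraries only. Reads shared with processed pseudogenes of POU5F1 or NANOG may be dropped or split by the counting, which was not tested. The labels call the replicate numbers batches, and the study's methods join the days of a batch, so the number was also fitted as a block. Differences between replicates 1 and 2 correlated between groups at -0.14 to 0.29.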

Additional observations from a re-analysis of the deposited data

Results flagged for a closer look

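The log2 ratio of POU5F1 in Epi-like over trophoblast-like cells was 12.58 in wild-type Day 12 replicate 1, far from the 6.47 to 8.05 of the other 4 wild-type libraries. It rests on 9 POU5F1 UMIs in 278 trophoblast-like cells, 0.215 CPM, and on 13 Epi-like cells, and the removal of ambient RNA took 30.8% of the POU5F1 UMIs in those trophoblast-like cells. It was the only sample so far apart among the 7 groups tested, and chance marks about 1 group in 20.

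The uncorrected matrix held 209 cells, from 8 libraries, that the corrected matrix did not. Over the 3 counts that a count of 0 allows, they held 34 UMIs of POU5F1, 5 of NANOG, 7 of UTF1, 16 of DPPA4 and 84 of L1TD1, of 972665 UMIs in all. L1TD1 was found in 52 and POU5F1 in 13 of these cells. They were not named and entered no comparison.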

How the results depend on the processing

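Direction and side of the threshold stayed in 683 repeats of a member's test. A member passed in 3, named beside its result, and the direction turned in 51, none past the threshold. The cause was not tested. Clustering uncorrected or by a mutual neighbour graph, lenient naming (leading genes not checked) and cleaned classes (no sub-clusters of other markers) were chosen after seeing the data.

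Genes called in wild-type Epi-like cells (47 in the report) were 199 at a false discovery rate of 5%, 159 with DESeq2, 518 with no filter, 19 with the compared groups alone, 90 with at least 20 cells, 74 and 98 at resolutions 0.5 and 2 and 26 with lenient naming. Leaving out 1 library gave 12 (without wild-type Day 10 replicate 2) to 55. In Epi-derived cells at Day 10 (0) they were 2 at 5%, 16 with DESeq2, 135 with no filter, and 1 with at least 20 cells, resolution 0.5, no high-UMI cells or cleaned classes. At Day 12 (0) they were 1 at 5%, 43 with DESeq2, 364 with no filter, and 1 with the compared groups alone or cleaned classes. At Day 14 (12) they were 531 at 5%, 571 with DESeq2, 1139 with no filter, 54 with the compared groups alone, 26 with at least 20 cells, 24 at resolution 0.5 and 28 without high-UMI cells. Without wild-type replicate 1 or 2 or mutant replicate 1 or 2 they were 3, 0, 0 and 5.

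In Epi-like cells (0) they were 69 at 5%, 138 with DESeq2, 359 with no filter, 439 with the compared groups alone, 21 at resolution 2, 57 with each library clustered alone, 4 uncorrected, 3 by the graph, 3 with lenient naming, and 0 to 2 with 1 library left out. In mesoderm-like cells (2) they were 8 with DESeq2, 102 with no filter, 7 with the compared groups alone, 0 at resolution 2, and 0 and 1 without wild-type replicate 1 and 2. In amnion-like cells (5) they were 19 at 5%, 11 with DESeq2, 223 with no filter, 249 with the compared groups alone, 3 at resolution 2, 26 without high-UMI cells, 1 with each library alone, 74 by the graph and 1 without either mutant library. The median ratio of Epi-like over amnion-like cells was 1.92 at resolution 2. That over mesoderm-like cells was 1.74 at resolution 2, 1.06 with each library alone and 0.87 by the graph.

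With the replicate number as a block these counts were 27 in wild-type Epi-like, 3 in Epi-derived Day 14, 4 in mesoderm-like and 8 in amnion-like cells. The block turned USP44 in Epi-like (0.050), UTF1 in mesoderm-like (-0.16) and DPPA4 in amnion-like cells (-0.054), and it changed no call of a member.

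Log2 differences that turned, in wild-type Epi-like cells, were POU5F1 at resolution 2 (0.019) and L1TD1 on leaving out a library (-0.60 to 0.076). At Day 10 they were DPPA4 (0.067) and L1TD1 (0.0072) at resolution 0.5, and L1TD1 on leaving out a library (-0.41 to 0.29). At Day 12 they were NANOG and UTF1 with at least 20 cells (0.30 and 0.097) and at resolution 0.5 (0.34 and 0.14). With a library left out, NANOG spanned -0.63 to 0.30, UTF1 -1.42 to 0.097, POU5F1 -0.043 to 0.12 and USP44 -0.25 to 0.64. At Day 14 GDF3 was -0.25 in cleaned classes, and leaving out a library gave POU5F1 -0.80 to 0.0027, DPPA4 -0.085 to 0.32 and GDF3 -0.90 to 2.10, the lowest without mutant replicate 2.

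In Epi-like cells UTF1 was -0.11 with no filter, -0.040 at resolution 2, -0.28 by the graph, -0.0089 with lenient naming, -0.11 without high-UMI cells, -0.011 on uncorrected counts and -0.40 to 0.35 on leaving out a library. USP44 was 0.18 at resolution 2, 0.24 with each library alone and 0.48 with lenient naming. In mesoderm-like cells GDF3 was 0.13 with DESeq2, 0.00061 with the compared groups alone, 0.027 and 1.41 at resolutions 0.5 and 2, and -0.68 to 2.64 on leaving out a library. UTF1 was -1.24 and DPPA4 -0.096 at resolution 2. By the graph POU5F1 was 0.22, DPPA4 -0.30 and USP44 -10.15, the last from 12 mutant cells with 0 USP44 UMIs, so it depends on the fit's handling of 0 and is no measure of size or bound. USP44 was -0.91 without high-UMI cells, and leaving out a library gave UTF1 -0.15 to 0.57 and USP44 -0.099 to 2.81. In amnion-like cells NANOG was 0.38 at resolution 2, 0.18 with each library alone and 0.68 without high-UMI cells, and leaving out a library gave NANOG -3.60 to 0.031 and DPPA4 -0.94 to 1.36.

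In 11 cases an arm was left with no library, which gave no value. Arms of 1 library and few UMIs limit the amnion-like and mesoderm-like comparisons.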

Other observations

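Several unnamed Epi-derived sub-clusters held the members at levels of their own. A Day 10 sub-cluster of 76 cells led by MT3, CCDC137 and CDX1 had GDF3 at 96.1 and 139 CPM in the wild-type and 69.8 CPM in the mutant libraries, above the 8.37 to 47.7 CPM of the Epi-like sums, with POU5F1 at 1763, 1759 and 1534 CPM. A Day 14 sub-cluster led by WFDC2, TPM1 and PMP22 had POU5F1 at 53.1 CPM in 144 cells of mutant replicate 1 and 376 CPM in 25 cells of mutant replicate 2, with no GDF3 UMI and 1 and 10 NANOG UMIs. A second Day 14 sub-cluster led by WFDC2, FN1 and IGFBP3 had 2 POU5F1 UMIs in 23 cells of mutant replicate 1, 14.3 CPM. At Day 12, 37 cells with trophoblast markers in the mutant libraries had POU5F1 at 819 and 753 CPM and NANOG at 154 and 96.03 CPM. Their median depth was 34058 and 40858 UMIs in replicates 1 and 2. Epi-like sub-clusters of these libraries had 13606 to 16713 and 16355 to 21176 UMIs. Whether these cells were doublets was not tested. These sub-clusters were picked after their values were seen.

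In the mutant Day 10 library, ExE-Mech-like cells had 60.7 CPM of POU5F1, from 429 UMIs in 64 cells, against 1.58 to 15.05 CPM in the other 7 libraries with such cells. Neither wild-type Day 10 library had cells of this name, and the study first found this class at Day 12. The same library had 80 such cells at a clustering resolution of 0.5 and 64 at a resolution of 2, with 7 mesoderm-like cells at both in place of 23.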
